A study of Homo sapiens with 12 samples.

Results

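Metallothioneins and the zinc exporter that shares their regulator were followed through the RNA-seq counts of a breast cancer cell line given thyroid hormone. The genes were chosen by name from the deposited counts. They are the metallothioneins MT1X, MT2A, MT1E, MT1F, MT1G and MT1M, the zinc exporter SLC30A1 and the zinc-sensing transcription factor MTF1, 8 of the 56832 genes counted. Of these 8 genes, 6 had enough reads to be among the 14549 genes tested, while MT1G and MT1M did not. The choice was made with earlier results of the same libraries known, among them the higher level of MT1X with T3 in cells carrying the empty vector. For the members, that contrast and the interaction that contains it are therefore given below as a description, with no p-value. The p-values printed for the other contrasts place the members among all genes and are not support, since the choice used the same libraries.

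The cells were MDA-MB-468, an established human line from a basal-like breast cancer, and the labels give 1 stable derivative for each vector, called a pool here, without saying whether it is a clone. TRB cells carried pCDH-TRB, a vector for thyroid hormone receptor beta, and EV cells carried the empty vector pCDH-EV. All cells were first deprived of hormone for 24 hours, in medium free of phenol red with charcoal-stripped serum, and then received 10 nM T3 (triiodothyronine) or the NaOH vehicle for 24 hours. The 4 groups, with 3 libraries each, were TRB with T3, TRB with vehicle, EV with T3 and EV with vehicle. Separate cultures are not mentioned in the labels, so the spread behind each p-value may be technical. Any TRB to EV difference is one between a single pool of each kind.

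Metallothioneins are short, cysteine-rich proteins that bind zinc and copper and also sequester cadmium. Their human genes lie in a cluster on chromosome 16. MTF1 binds zinc, enters the nucleus and acts on metal response elements before the metallothionein genes and before SLC30A1, which encodes ZnT1, the transporter that moves zinc out across the plasma membrane. Metallothionein genes are also known to respond to glucocorticoids, oxidants and cytokines, and several family members are silent in many epithelial cells.

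THRB, the gene carried by the TRB vector, stood at 311 to 344 CPM (gene counts scaled to library size with TMM factors) in TRB T3 libraries and 136 to 144 CPM in TRB vehicle libraries. It stood at 37.7 to 39.9 CPM in EV T3 libraries and 42.6 to 44.2 CPM in EV vehicle libraries, so each library matched its vector label. KLF9, a transcription factor gene that T3 induces directly, averaged 27.1 ± 0.382 CPM with T3 and 2.44 ± 0.502 CPM with vehicle in TRB cells (SD, n = 3 each). In EV cells KLF9 averaged 13 ± 2.1 CPM with T3 and 2.95 ± 0.714 CPM with vehicle. HR, a corepressor gene that T3 induces, averaged 220 ± 10.3 CPM in TRB T3 and 61.6 ± 2.69 in TRB vehicle libraries, and 96.1 ± 1.54 in EV T3 and 87.5 ± 0.808 in EV vehicle libraries. THRA, the gene of the other T3 receptor, averaged 6.66 ± 0.235 CPM in TRB T3 and 17.5 ± 1.36 in TRB vehicle libraries, and 13.2 ± 1.03 in EV T3 and 14.8 ± 0.768 in EV vehicle libraries. Counts assigned to genes came to 11335783 to 11915181 per TRB T3 library, 7311623 to 8904361 per TRB vehicle library, 10323437 to 11955825 per EV T3 library and 4241863 to 7851876 per EV vehicle library. Every T3 library was thus deeper than every vehicle library. Reads that aligned to more than 1 place made up 14.88% to 15.96% of the lines in TRB T3, 17.63% to 23.27% in TRB vehicle, 16.36% to 17.63% in EV T3 and 20.49% to 24.5% in EV vehicle libraries. Mitochondrial ribosomal RNA stood at 580 to 918 CPM in TRB T3, 7050 to 18000 CPM in TRB vehicle, 497 to 662 CPM in EV T3 and 3230 to 27300 CPM in EV vehicle libraries. These 3 measures moved with T3, and their part in the T3 results was not tested, beyond the thinning to equal depth reported with the alternatives.

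The sequences before the start sites are shown because the metal response element is the feature that the regulated genes of this family are known to share. The 250 bases before the RefSeq start (GRCh38.p14) were searched on both strands for the element core, TGCACNC or TGCGCNC, where N is any base. Of the 8 genes, 4 had an entry in the promoter table: MT1X, MT2A, SLC30A1 and MTF1. The windows are chr16:56682220-56682469 (plus strand) for MT1X, chr16:56608334-56608583 (plus strand) for MT2A and chr1:211579162-211579411 (minus strand) for SLC30A1. The neighbouring gene MT1H, which had no counts in any library, is shown for contrast, at chr16:56669564-56669813 (plus strand). Capitals mark the element matches on either strand, and each sequence runs 5′ to 3′ along the gene:
MT1X: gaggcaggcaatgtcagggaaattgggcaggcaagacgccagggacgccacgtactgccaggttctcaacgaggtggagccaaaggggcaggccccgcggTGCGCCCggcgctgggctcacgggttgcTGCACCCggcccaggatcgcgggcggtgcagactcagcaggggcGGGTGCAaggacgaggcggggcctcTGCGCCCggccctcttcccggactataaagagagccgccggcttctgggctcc
MT2A: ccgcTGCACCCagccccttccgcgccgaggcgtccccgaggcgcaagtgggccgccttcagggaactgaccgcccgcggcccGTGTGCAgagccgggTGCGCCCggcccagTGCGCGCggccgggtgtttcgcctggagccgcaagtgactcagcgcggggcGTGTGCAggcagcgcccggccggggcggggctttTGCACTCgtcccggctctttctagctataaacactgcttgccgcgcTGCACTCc
SLC30A1: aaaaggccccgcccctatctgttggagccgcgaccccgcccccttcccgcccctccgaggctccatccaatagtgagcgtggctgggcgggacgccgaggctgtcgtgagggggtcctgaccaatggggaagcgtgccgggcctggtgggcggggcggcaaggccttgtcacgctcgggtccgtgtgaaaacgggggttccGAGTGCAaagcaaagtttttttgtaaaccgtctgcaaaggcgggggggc
MT1H: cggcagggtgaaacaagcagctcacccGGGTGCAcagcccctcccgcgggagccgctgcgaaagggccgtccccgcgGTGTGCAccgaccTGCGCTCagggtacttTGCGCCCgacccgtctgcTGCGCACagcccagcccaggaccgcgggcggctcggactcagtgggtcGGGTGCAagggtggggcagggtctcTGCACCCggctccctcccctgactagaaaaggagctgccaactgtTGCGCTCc

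MT2A held 7 matches, a number reached by 0.03% of the 35116 promoters searched, and MT1X held 4, reached by 0.37%. SLC30A1 held 1 match, on the opposite strand and centred 46 bases before the start, and 24.8% of all promoters held at least 1. MTF1 (chr1:37859593-37859842, minus strand) held none. MT1H held 8 matches, which 0.02% of promoters reached, and MT1B and MT4 held 3 each. MT1H, with the most matches of the windows shown, had no counts, and neither did MT1B or MT4. Whether the number of matches goes with expression was not tested. The windows are placed by RefSeq starts, and the GENCODE genes whose coordinates are given below start elsewhere, earlier for MT2A and MT1X and later for SLC30A1. A match is a description of letters, and the windows say nothing about which factor was bound in these cells.

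**Figure D1:**
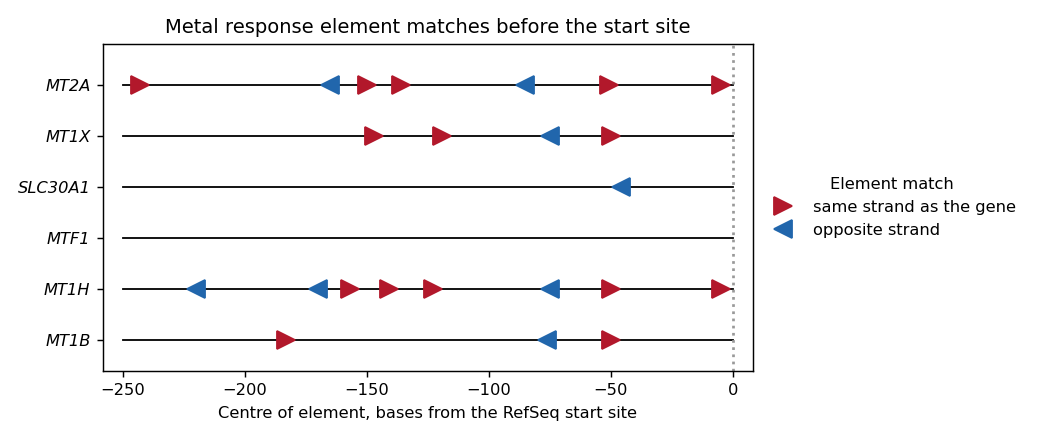
Position of each metal response element match in the 250 bases before the RefSeq start site of 4 of the genes and of 2 neighbouring metallothionein genes (MT1H and MT1B); right-pointing red triangles are matches on the gene's own strand and left-pointing blue triangles matches on the opposite strand. MT2A, MT1X and MT1H carry 7, 4 and 8 matches, SLC30A1 carries 1 and MTF1 none.

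Only part of the family was expressed. Over all 12 libraries together MT2A (chromosome 16, 56608199 to 56609497) collected 32204 counts and MT1X (chromosome 16, 56682424 to 56684196) 4191. MT1F (chromosome 16, 56657694 to 56660698) collected 1447 counts and MT1E (chromosome 16, 56625475 to 56627112) 757. These 4 genes had reads in every library. MT1G (chromosome 16, 56666731 to 56668065) had 2 counts in all, 1 in TRB T3 replicate 3 and 1 in TRB vehicle replicate 1. MT1M (chromosome 16, 56632233 to 56633986) had none, which allows a level of up to 0.0271 CPM over the 12 libraries together, at 3 counts of 110638513. Within a single library the same floor lay between 0.251 and 0.707 CPM, so a level of either gene below that in 1 library could have gone unseen. Of the other metallothionein names in the files, MT1A, MT1JP and MT3 had 1 count each, and MT1B, MT1H, MT1L, MT1HL1, MT1DP, MT1CP and MT4 had none.

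Levels between genes were compared per kilobase of the principal transcript (CPM per kb). MT2A was the highest in every group, at 564 ± 15.5 CPM per kb in TRB T3, 212 ± 8.84 in TRB vehicle, 402 ± 22.5 in EV T3 and 158 ± 5.05 in EV vehicle libraries (SD, n = 3 each). MT1X came next, at 156 ± 2.66 CPM per kb in TRB T3, 29.7 ± 4.34 in TRB vehicle, 82.6 ± 9.28 in EV T3 and 24.3 ± 5.21 in EV vehicle libraries. MT1F was at 33.1 ± 0.875 CPM per kb in TRB T3 and 7.13 ± 1.52 CPM per kb in EV vehicle libraries, above MTF1 in the first (16.4 ± 1.02) and below it in the second (17.1 ± 0.843). MT1E, at 11.8 ± 0.842 CPM per kb in TRB T3 libraries, lay beside SLC30A1 at 11.4 ± 0.673. The transcripts used were 786 bases long for MT2A, 450 for MT1X, 690 for MT1F and 704 for MT1E, against 5474 for SLC30A1 and 7972 for MTF1. For transcripts this short the per-length level also depends on fragment length, which the sources used here do not give.

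The family's similarity bears on these counts. Of the 50-base windows of the MT1X transcript, 45.1% also occurred in another annotated transcript, against 4.9% for MT2A, 5.3% for MT1E and 3.6% for MT1F. With 75-base windows the shares were 31.6% for MT1X, shared with the overlapping locus AC026461.1, MT1G and the pseudogene MT1XP1, 0.8% for MT1E and 0% for MT2A and MT1F. Reads of more than 1 place were set apart in the count files, so the MT1X counts hold only what could be placed, and its level is uncertain. Windows shared with AC026461.1, which overlaps MT1X, can lie at the same genomic place. The window shares are therefore not the share of MT1X reads set apart, which was not measured. AC026461.1 lies on the same strand as MT1X and was not among the counted names, and whether its reads were given to MT1X was not tested. MTF1 overlaps the pseudogene AL929472.4 on the opposite strand, and the sources used here do not say whether counting used strand.

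**Figure D2:**
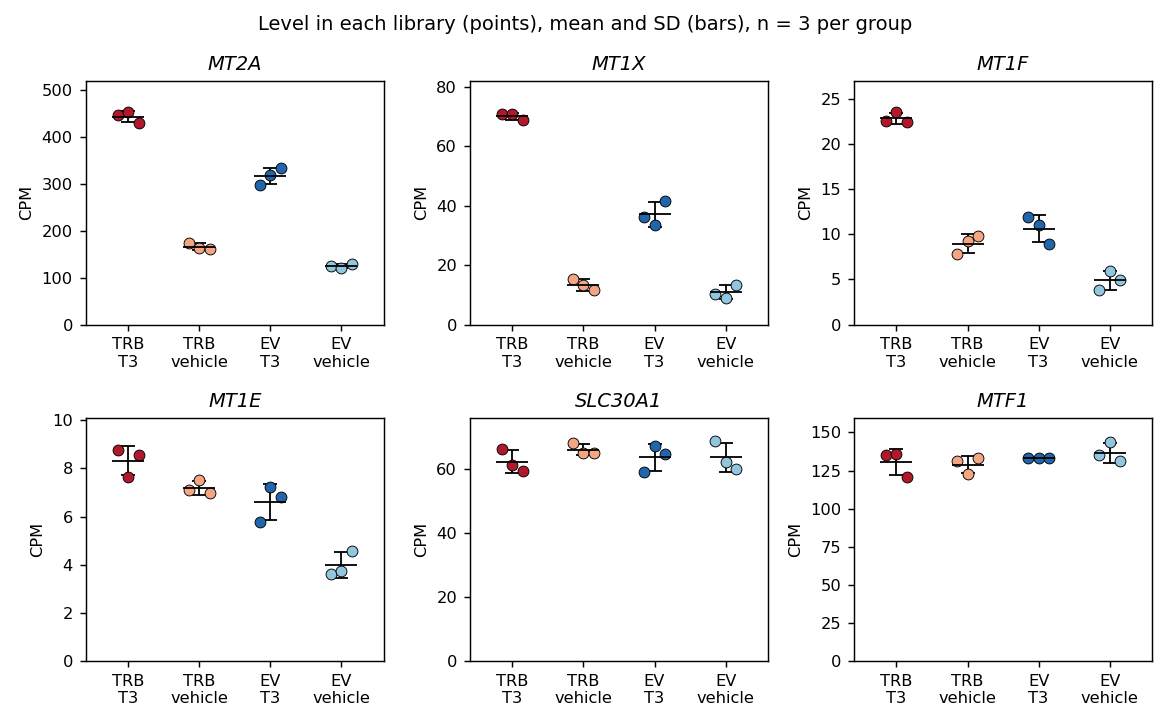
Level (CPM, linear axis from 0) of the 6 tested genes in each of the 12 libraries; points are libraries, the wide bar is the group mean and the whiskers its SD (n = 3). MT2A, MT1X and MT1F are highest in the TRB T3 libraries and lowest in the EV vehicle libraries, whereas SLC30A1 lies between 59.1 and 68.6 CPM and MTF1 between 121 and 144 CPM in all libraries.

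In TRB cells T3 raised 3 metallothionein genes, and neither the zinc exporter nor MTF1 passed the test. MT1X was higher by 2.39 ± 0.09 on the log2 scale (SE), MT2A by 1.41 ± 0.04 and MT1F by 1.35 ± 0.11, with edgeR quasi-likelihood adjusted p of 1.14e-30, 1.58e-41 and 1.6e-16. T3 called 22.4% of all 14549 genes higher and 21.9% lower in these cells, and no gene of the set was called lower. The median log2 fold change of the 6 tested genes was 0.78, against 0 over all genes.

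MT1X had 827, 787 and 787 counts in the TRB T3 libraries, against 117, 118 and 84 in the TRB vehicle libraries. In CPM these were 70.9, 70.7 and 68.7 with T3, against 15.4, 13.2 and 11.5 with vehicle. The 2 groups were far apart, at a 5.24-fold difference, and the T3 libraries lay close together. Among all genes tested, 116 had a higher log2 fold change than MT1X in this comparison.

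MT2A, usually the most abundant human metallothionein, had 5208, 5049 and 4922 counts in the TRB T3 libraries, against 1327, 1455 and 1185 in the TRB vehicle libraries. Its level was 446, 453 and 430 CPM with T3, against 174, 163 and 162 CPM with vehicle. No T3 library came near a vehicle library, and the difference was 2.66-fold. MT1F had 263, 262 and 257 counts with T3, against 59, 83 and 72 with vehicle. The corresponding levels were 22.5, 23.5 and 22.4 CPM with T3, against 7.76, 9.3 and 9.84 CPM with vehicle, a 2.54-fold difference without overlap.

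MT1E, which encodes another isoform of the MT1 group, had 102, 85 and 98 counts in TRB T3 libraries, against 54, 67 and 51 in TRB vehicle libraries. After scaling for depth its level was 8.74, 7.63 and 8.56 CPM with T3, against 7.1, 7.5 and 6.97 CPM with vehicle. The groups did not overlap but lay close together, and its log2 fold change of 0.21 ± 0.15 did not pass the test (edgeR adjusted p = 0.258). Non-overlap in this direction held for 26.1% of all genes tested in these cells and for 4 of the 6 genes here.

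In EV cells the same 4 metallothionein genes stood higher with T3 than with vehicle. The log2 fold changes were 1.74 ± 0.11 (SE) for MT1X, 1.34 ± 0.05 for MT2A, 1.06 ± 0.16 for MT1F and 0.70 ± 0.19 for MT1E. At the threshold used throughout (edgeR adjusted p below 0.05 over all genes), 4 of the 6 tested genes were called higher and none lower, with a background of 2.84% of all genes called higher and 1.7% lower. The libraries of the 2 groups did not overlap for those 4 genes, as for 10.4% of all genes in that direction. Nothing is read from that count, since the genes were proposed with this contrast in view. The median log2 fold change was 0.88 for the 6 genes and 0 for all genes tested.

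MT1X had 377, 385 and 503 counts in the EV T3 libraries, against 43, 57 and 106 in the EV vehicle libraries. Scaled to CPM it stood at 36.3, 33.5 and 41.7 with T3, against 10.3, 8.92 and 13.5 with vehicle. The groups were well separated and EV vehicle replicate 3 was the highest of its group, at a mean difference of 3.33-fold, and 10 of all genes tested had a higher log2 fold change. MT2A had 3089, 3658 and 4015 counts with T3, against 514, 772 and 1010 with vehicle. Its CPM were 298, 318 and 333 with T3, against 124, 121 and 129 with vehicle, so that the T3 libraries varied more than the vehicle libraries and did not overlap them.

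MT1F had 123, 127 and 108 counts in EV T3 libraries, against 16, 38 and 39 in EV vehicle libraries. These came to 11.9, 11 and 8.96 CPM with T3, against 3.85, 5.95 and 4.97 CPM with vehicle, without overlap. MT1E had 60, 83 and 82 counts with T3, against 15, 24 and 36 with vehicle, the smallest counts among the tested genes. Its level was 5.78, 7.22 and 6.8 CPM with T3, against 3.61, 3.76 and 4.59 CPM with vehicle. MT1E was no longer called in EV cells with DESeq2, after thinning to equal depth, or without EV T3 replicate 2, EV vehicle replicate 1 or EV vehicle replicate 2. Its log2 fold change stayed between 0.63 and 0.75 in those 5 fits.

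**Figure D3:**
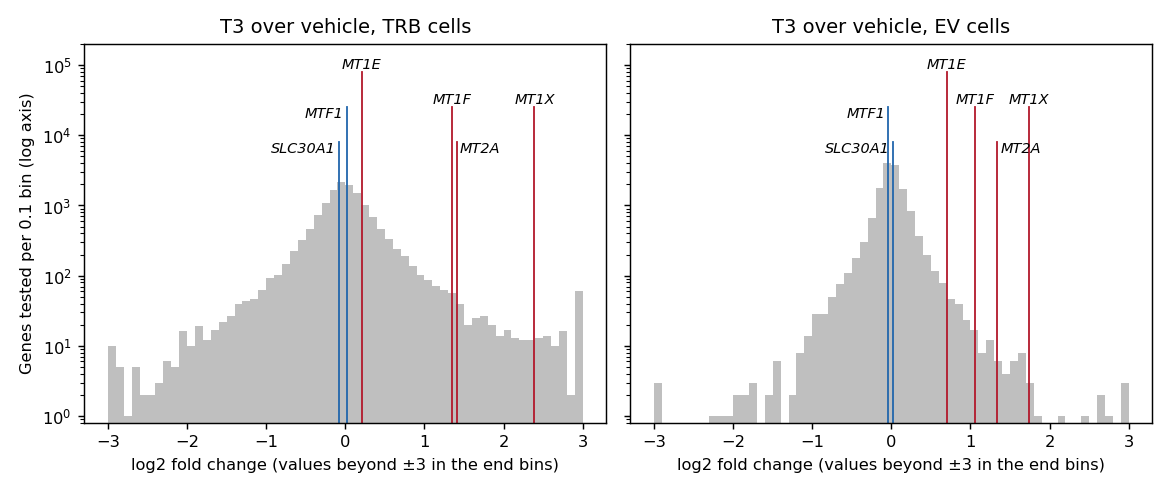
Number of tested genes in each 0.1-wide bin of log2 fold change (log count axis) for T3 over vehicle in TRB cells (left) and EV cells (right), with vertical lines at the values of the 6 tested genes (red, metallothioneins; blue, SLC30A1 and MTF1). In TRB cells MT1X lies at 2.39 and in EV cells at 1.74, toward the right edge of both distributions, while SLC30A1 and MTF1 lie at the centre.

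The receptor vector was compared with the empty vector separately under vehicle and under T3. Both comparisons reuse EV libraries of the contrast in which MT1X was first seen, and their p-values support nothing by themselves. Under vehicle, MT2A, MT1F and MT1E were higher in TRB than in EV cells and MT1X was not called. MT2A averaged 166 ± 6.95 CPM in TRB vehicle and 124 ± 3.97 CPM in EV vehicle libraries (SD, n = 3 each), a log2 difference of 0.42 ± 0.05 (SE, edgeR adjusted p = 3.86e-10). MT1F averaged 8.96 ± 1.08 CPM in TRB vehicle and 4.92 ± 1.05 CPM in EV vehicle libraries (0.83 ± 0.18, edgeR adjusted p = 0.000371). MT1E averaged 7.19 ± 0.279 CPM in TRB vehicle and 3.98 ± 0.527 CPM in EV vehicle libraries (0.82 ± 0.19, edgeR adjusted p = 0.00127). For these 3 genes the groups did not overlap, which held in the higher direction for 15.3% of all genes. The 3 of 6 genes called higher, with none lower, stand beside 7.86% and 7.4% of all genes tested.

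MT1X averaged 13.4 ± 1.96 CPM in TRB vehicle and 10.9 ± 2.35 CPM in EV vehicle libraries. The libraries overlapped, and the log2 difference of 0.26 ± 0.14 did not pass the test (edgeR adjusted p = 0.25). Leaving out EV vehicle replicate 3 gave 0.49, leaving out replicate 2 of that group gave 0.11, and leaving out TRB vehicle replicate 1 gave 0.15.

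Under T3 the difference between the pools was called for all 4 expressed metallothioneins. MT1X averaged 70.1 ± 1.2 CPM in TRB T3 and 37.2 ± 4.17 CPM in EV T3 libraries (SD, n = 3 each), a log2 difference of 0.91 ± 0.07 (edgeR adjusted p = 1.68e-17). MT1F averaged 22.8 ± 0.604 CPM in TRB T3 and 10.6 ± 1.5 CPM in EV T3 libraries, and its log2 difference, 1.11 ± 0.10, was the highest of the 6 tested genes here (edgeR adjusted p = 4.07e-15). MT2A averaged 443 ± 12.2 CPM in TRB T3 and 316 ± 17.7 CPM in EV T3 libraries (0.49 ± 0.04, edgeR adjusted p = 3.22e-18). These calls stand beside 21% of all genes called higher and 19.7% called lower in TRB cells under T3, and 24.2% that were higher without overlap.

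MT1E was at the edge of the threshold under T3. It averaged 8.31 ± 0.593 CPM in TRB T3 and 6.6 ± 0.739 CPM in EV T3 libraries, a log2 difference of 0.33 ± 0.14 (edgeR adjusted p = 0.0488). The call was lost in 14 of 21 alternatives, with adjusted p over all of them between 0.0377 and 0.304.

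Set in order, MT2A ran TRB T3, EV T3, TRB vehicle, EV vehicle, with no overlap between neighbours. MT1X followed that order, with the 2 vehicle groups overlapping. MT1F had the same order, with EV T3 (8.96 to 11.9 CPM) overlapping TRB vehicle (7.76 to 9.84 CPM). MT1E instead ran TRB T3, TRB vehicle, EV T3, EV vehicle, and TRB vehicle (6.97 to 7.5 CPM) overlapped EV T3 (5.78 to 7.22 CPM).

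The T3 effects in the pools were set side by side as an interaction in the same fit, which contains the EV contrast in which MT1X was first seen and is given as a description. The T3 effect on MT1X was larger in TRB than in EV cells by 0.65 ± 0.16 on the log2 scale (SE). At the common threshold MT1X was the 1 gene of the 6 past it, beside 12.3% of all genes in that direction and 11.6% in the other, and nothing is read from that count. Without EV vehicle replicate 3 the value was 0.42 and no longer past the threshold. For the other metallothioneins the difference of T3 effects was 0.07 ± 0.06 for MT2A, 0.28 ± 0.21 for MT1F and -0.49 ± 0.24 for MT1E. For SLC30A1 it was -0.10 ± 0.08 and for MTF1 0.06 ± 0.07. THRB itself was higher with T3 in TRB cells, by 1.23 ± 0.04 on the log2 scale, so under T3 the pools differed more in receptor RNA than under vehicle.

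**Figure D4:**
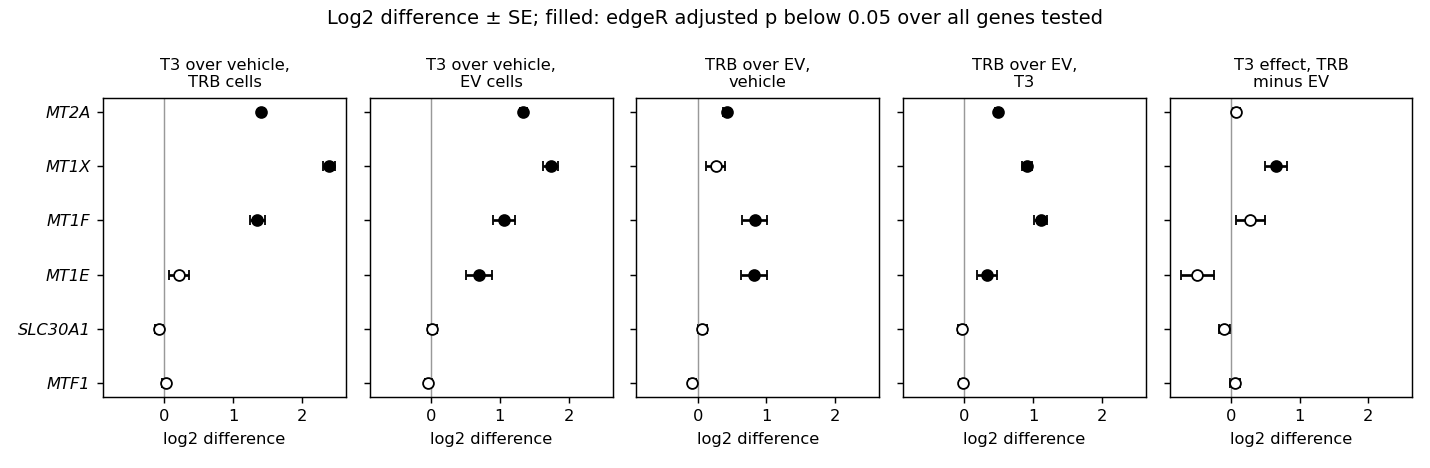
Log2 difference with its SE (bars) for the 6 tested genes in the 5 comparisons; filled points passed edgeR's adjusted p below 0.05 over all genes tested and open points did not. The metallothioneins lie right of 0 in the first 4 panels, SLC30A1 and MTF1 lie near 0 in all 5, and in the last panel MT1X alone is filled, at 0.65.

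Summed over the 4 expressed genes, metallothionein RNA in TRB cells reached 544 ± 13.4 CPM with T3 and 196 ± 7.76 CPM with vehicle (SD, n = 3 each). In EV cells the sum was 371 ± 19.4 CPM with T3 and 144 ± 6.58 CPM with vehicle. MT2A made up most of it in every library, between 81.2% and 87.4% of the metallothionein counts. The MT1X share was 12.9 ± 0.15% in TRB T3 and 6.8 ± 0.75% in TRB vehicle libraries, and 10.0 ± 0.83% in EV T3 and 7.5 ± 1.27% in EV vehicle libraries. The MT1E share ran the other way, at 1.5 ± 0.12% in TRB T3 and 3.7 ± 0.2% in TRB vehicle libraries, and 1.8 ± 0.21% in EV T3 and 2.8 ± 0.21% in EV vehicle libraries.

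Counted against MT2A in the same library, a ratio that does not depend on sequencing depth or scaling, MT1X had 15.88, 15.59 and 15.99 counts per 100 MT2A counts in TRB T3 libraries, against 8.82, 8.11 and 7.09 in TRB vehicle libraries. In EV cells the ratio was 12.2, 10.52 and 12.53 with T3, against 8.37, 7.38 and 10.5 with vehicle, where T3 replicate 2 and vehicle replicate 3 nearly met. MT1F had 5.15 ± 0.09 counts per 100 MT2A counts in TRB T3 and 5.41 ± 0.85 in TRB vehicle libraries, and 3.38 ± 0.65 in EV T3 and 3.97 ± 0.91 in EV vehicle libraries. The MT1E ratio was 1.88 ± 0.17 in TRB T3 and 4.33 ± 0.27 in TRB vehicle libraries, and 2.08 ± 0.17 in EV T3 and 3.2 ± 0.33 in EV vehicle libraries.

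**Figure D5:**
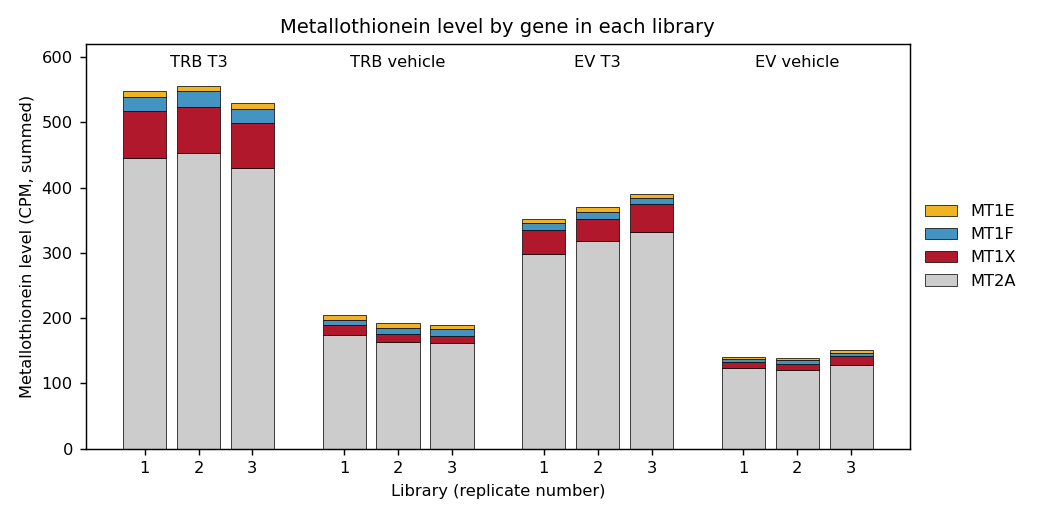
Summed level (CPM, bars from 0) of MT2A, MT1X, MT1F and MT1E in each library, stacked by gene and grouped by vector and treatment. The TRB T3 libraries reach 529 to 555 CPM and the TRB vehicle libraries 190 to 205 CPM; the EV T3 libraries reach 352 to 390 CPM and the EV vehicle libraries 139 to 152 CPM.

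The exporter and the regulator stayed within narrow ranges. SLC30A1 (chromosome 1, 211571568 to 211578742) had 775, 682 and 679 counts in TRB T3, 517, 581 and 475 in TRB vehicle, 613, 771 and 781 in EV T3 and 285, 398 and 471 in EV vehicle libraries. After scaling it averaged 62.3 ± 3.68 CPM in TRB T3, 66 ± 1.72 in TRB vehicle, 63.6 ± 4.11 in EV T3 and 63.6 ± 4.44 in EV vehicle libraries (SD, n = 3 each), and all 4 groups overlapped. Its log2 fold change with T3 was -0.08 ± 0.06 in TRB cells (edgeR adjusted p = 0.264) and 0.02 ± 0.06 in EV cells. Over the 21 alternatives it lay between -0.13 and 0.01 in TRB cells and between -0.03 and 0.07 in EV cells. Between the pools it was 0.07 ± 0.06 under vehicle and -0.03 ± 0.06 under T3 (edgeR adjusted p = 0.565 and 0.677). Per 100 MT2A counts SLC30A1 had 14.06 ± 0.72 in TRB T3 and 39.66 ± 0.61 in TRB vehicle libraries, and 20.12 ± 0.85 in EV T3 and 51.21 ± 4.42 in EV vehicle libraries.

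MTF1 (chromosome 1, 37809567 to 37859620) averaged 131 ± 8.17 CPM in TRB T3, 129 ± 5.58 in TRB vehicle, 133 ± 0.236 in EV T3 and 136 ± 6.72 in EV vehicle libraries, with overlapping groups in each comparison. With T3 it differed by 0.02 ± 0.05 on the log2 scale in TRB cells (edgeR adjusted p = 0.719) and by -0.04 ± 0.05 in EV cells. Between the pools the log2 difference was -0.08 ± 0.05 under vehicle (edgeR adjusted p = 0.304) and -0.02 ± 0.04 under T3 (0.73). These RNA levels say nothing of where the MTF1 protein was or how active it was.

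Other short transcripts were read beside the metallothioneins. The 285 protein-coding genes tested with transcripts under 800 bases had a median log2 fold change with T3 of -0.09 in TRB cells, where 2 of them lay above MT1X and 5 above MT2A. In EV cells their median was 0.05, and 1 of them lay above MT1X. Of the 285, 134 were called with T3 in TRB cells, 43 of them higher and the rest lower. In EV cells 26 were called, 20 of them higher. Over all genes tested, 22.4% were called higher and 21.9% lower in TRB cells, and 2.84% and 1.7% in EV cells. The part of transcript length in the T3 results was not tested. The short-transcript class ran from -0.65 to 0.66 in TRB cells and from -0.24 to 0.39 in EV cells between its 5th and 95th percentiles.

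Other zinc and metal genes moved in both directions with T3 in TRB cells. Of 6 other zinc exporters tested (SLC30 genes), 2 rose and 1 fell, and of 12 zinc importers (SLC39 genes), 4 rose and none fell, with list medians of 0.06 each, against 0 for all genes. Beside these counts, 22.4% of all genes tested were called higher and 21.9% lower. SLC30A2, which loads zinc into vesicles, rose by 2.29 ± 0.33 on the log2 scale to 3.53 ± 0.316 CPM with T3, against 0.715 ± 0.0644 CPM with vehicle. Its vehicle level lay near the floor of 3 counts (0.337 to 0.41 CPM in TRB vehicle libraries), so few reads stand behind this change. SLC30A7, which carries zinc into the early secretory pathway, averaged 167 ± 5.61 CPM with T3 and 133 ± 2.47 CPM with vehicle (log2 0.33 ± 0.04). SLC39A7, which releases zinc from the endoplasmic reticulum, averaged 291 ± 16.8 CPM with T3 and 212 ± 17.5 CPM with vehicle (log2 0.46 ± 0.05). Among 10 copper-handling genes 3 rose and 2 fell, and the copper importer gene SLC31A1 averaged 135 ± 4.35 CPM with T3 and 96.7 ± 3.9 CPM with vehicle (log2 0.48 ± 0.05). For each of these genes edgeR's adjusted p lay at or below 9.43e-08.

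Genes tied to the response to oxidants, metals or glucocorticoids were read from lists in the same way. Of 12 genes under the oxidant-sensing factor NRF2, 2 rose and 7 fell with T3 in TRB cells (median -0.2). TXNRD1, a thioredoxin reductase, averaged 239 ± 7.4 CPM with T3 and 146 ± 10.3 CPM with vehicle (edgeR adjusted p = 5.22e-23). The ferritin heavy chain gene FTH1 averaged 869 ± 47.4 CPM with T3 and 1400 ± 32.6 CPM with vehicle (edgeR adjusted p = 3.19e-23). HMOX1, heme oxygenase, was higher by 0.26 ± 0.11 on the log2 scale (edgeR adjusted p = 0.0435). Of 8 heat shock genes that metals induce, 1 rose and 3 fell (median -0.02), and HSPB1, a small heat shock protein gene, averaged 84.3 ± 8.42 CPM with T3 and 253 ± 17.7 CPM with vehicle (edgeR adjusted p = 4.64e-30). HSPA1A and HSPA1B, which fell by 0.38 and 0.27 on the log2 scale, are near-identical copies between which reads are split with uncertainty. Of 9 glucocorticoid response genes 3 rose and 3 fell (median 0.06). SGK1, a kinase gene, averaged 36.7 ± 1.4 CPM with T3 and 8.27 ± 0.204 CPM with vehicle, while PER1, a clock gene, fell by 0.76 ± 0.13 on the log2 scale (edgeR adjusted p = 1.44e-29 and 8.79e-07). FKBP5 and TSC22D3, both known glucocorticoid targets, had log2 fold changes of 0.06 ± 0.05 and -0.12 ± 0.04 (edgeR adjusted p = 0.309 and 0.00936). PER1, FKBP5 and TSC22D3 were chosen after their values were seen and do not stand for the list. Further genes of that list, not named here, were called in both directions. The shares of these lists called in either direction stand beside the 22.4% and 21.9% of all genes called higher and lower.

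Genes of these lists were also called with T3 in EV cells. The zinc importers SLC39A1 (log2 0.14 ± 0.04, edgeR adjusted p = 0.0473) and SLC39A7 (0.22 ± 0.06, adjusted p = 0.0169) were higher, and HMOX1 (-0.41 ± 0.12, adjusted p = 0.0365) and HSPB1 (-0.19 ± 0.05, adjusted p = 0.00925) were lower. Under vehicle, the zinc exporter and importer lists had median log2 differences between the pools of 0.03 and -0.1. SGK1 was at 8.27 ± 0.204 CPM in TRB vehicle and 15.8 ± 1.12 CPM in EV vehicle libraries, a log2 difference of -0.95 ± 0.13 (edgeR adjusted p = 5.55e-08). Under T3, 2 of 6 exporters were higher in TRB cells, 2 of 12 importers higher and 3 lower, beside 21% of all genes called higher and 19.7% lower. SLC30A2 stood at 3.53 ± 0.316 CPM in TRB T3 and 0.464 ± 0.154 CPM in EV T3 libraries, the latter near the floor.

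Across the 12 libraries the log2 CPM of MT1X and MT2A correlated with a Pearson r of 0.99. MT1F correlated with MT2A at 0.90 and MT1E with MT2A at 0.76, while SLC30A1 and MTF1 correlated with MT2A at -0.22 and -0.19. The 12 points share 4 group means and are given as a description. Among 13989 other genes, those most like MT1X were ALDH1A3 (0.979), KITLG (0.978), RFC3 (0.977), WWTR1 (0.977) and LGALS8 (0.97). Those most like MT2A were ALDH1A3 (0.986), WWTR1 (0.971), KITLG (0.965), RFC3 (0.958) and PTGIS (0.957). For SLC30A1 the values were lower, led by CMPK1 (0.874), DLD (0.873), ACTL6A (0.847), NFU1 (0.84) and RP11-378J18.3 (0.838).

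Markers of the line and of other cell types were read beside these results. All 6 basal breast markers had counts in every group, with summed levels of 4560 to 4740 CPM in TRB T3, 5710 to 5740 in TRB vehicle, 6620 to 7170 in EV T3 and 7130 to 7450 in EV vehicle libraries. TP63 lay near the floor, at 0.506 ± 0.152 CPM in EV T3 and 0.61 ± 0.529 in EV vehicle libraries, so its presence is uncertain. Most of the basal sum was EGFR, at 4270 ± 69.8 CPM in TRB T3 and 4420 ± 63.8 in TRB vehicle libraries. The basal keratin KRT5 averaged 224 ± 23.5 CPM in TRB T3, 900 ± 55.8 in TRB vehicle, 999 ± 17.1 in EV T3 and 1160 ± 3.4 in EV vehicle libraries. KRT17 averaged 122 ± 12.8 CPM in TRB T3, 373 ± 18.5 in TRB vehicle, 522 ± 7.71 in EV T3 and 551 ± 2.53 in EV vehicle libraries. The lower keratin levels moved with T3 in TRB cells, and their part in the metallothionein results was not tested. The epithelial sum of 4 markers lay between 2710 and 3270 CPM over all libraries and the endothelial sum of 5 between 3.91 and 6.65 CPM. Within the endothelial sum, markers moved in opposite directions. CDH5 averaged 3.68 ± 0.311 CPM in TRB T3 and 0.427 ± 0.225 in TRB vehicle libraries. KDR averaged 0.347 ± 0.223 CPM in TRB T3 and 2.36 ± 0.203 in TRB vehicle libraries, and the lower value of each gene lay near the floor. The luminal sum of 5 lay between 257 and 333 CPM, with PGR at 0. Of 6 fibroblast markers COL1A2, DCN and LUM were at 0 in all groups, and the sum lay between 14.6 and 21.4 CPM over all libraries. The 5 leukocyte markers summed to 182 to 194 CPM in TRB T3, 17.6 to 21.7 in TRB vehicle, 49.8 to 53 in EV T3 and 28.2 to 32.7 in EV vehicle libraries. Nearly all of this was CD14, at 186 ± 6.47 CPM in TRB T3 libraries, while the defining leukocyte gene PTPRC averaged at most 0.32 CPM and MS4A1 was at 0. In such bulk samples, fewer cells that express a gene and less of its RNA per cell cannot be told apart.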

How the data were processed

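The 12 libraries were prepared with the NEBNext Ultra II kit, per the labels' protocols. The submitters' processing notes name CASAVA 1.7, STAR 2.7, HTSeq 0.10, DESeq2 and hg38. Read length, strand use and annotation are not stated in the sources at hand. For each library the authors deposited raw counts by gene, all whole numbers. A second deposited table holds normalized values (unit score), which matched each library's counts over a single factor to within 0.588 and was used for no result. Lines naming no gene (31.87% to 39.24% per library) were left out. Gene totals ran from 4241863 to 11955825, and floors of 3 counts cover counting error only.

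Genes that passed filterByExpr (minimum count 10, minimum total 15) were scaled by TMM and fitted in edgeR 4.0.16 (limma 3.58.1, R 4.3.3) as 4 group means with 8 residual degrees of freedom. Quasi-likelihood p-values with robust dispersions were adjusted by Benjamini-Hochberg over 14549 genes. Each SE was derived from the log2 fold change and its F value. The steps were tested on simulated data. Coordinates and transcript lengths come from a GENCODE annotation of GRCh38 (29502 of 56832 names matched by symbol, 911 by an older one) and promoters from RefSeq. The alternatives were DESeq2 1.42.0, RLE, other filters, the compared groups alone, a replicate block, each library left out, thinning, GC offsets and protein-coding genes only.

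Members and gene lists were chosen with earlier results of these data known. Named genes were the members, THRB, THRA, KLF9 and HR as checks, up to 3 called genes with the smallest p per list and comparison, and the 5 genes most correlated with MT1X, MT2A and SLC30A1. Outside that rule, FKBP5, TSC22D3, PER1, HMOX1 and HSPA1B with T3 in TRB cells, and CD14, EGFR, KRT5, KRT17, TP63, CDH5 and KDR, were chosen after their values were seen. A gene that the rule takes is not reported here.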

Additional observations from a re-analysis of the deposited data

Results flagged for a closer look

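The T3 effect on MT1X differed between the pools by 0.65 on the log2 scale (TRB minus EV), a value past the threshold for the interaction term of the edgeR fit. It contains the EV contrast in which MT1X was first seen, so it is a description and supports nothing by itself. All 3 TRB T3 libraries lay between 68.7 and 70.9 CPM and the EV T3 libraries between 33.5 and 41.7 CPM, while the vehicle libraries of both pools overlapped, at 11.5 to 15.4 CPM in TRB and 8.92 to 13.5 CPM in EV cells. The value lay between 0.42 and 0.83 over the alternatives and was not past the threshold without EV vehicle replicate 3.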

How the results depend on the processing

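MT1X, MT2A and MT1F kept their direction and their calls with T3 in both pools under all 21 alternatives, at 2.30 to 2.51, 1.34 to 1.45 and 1.2 to 1.41 in TRB cells and at 1.59 to 1.97, 1.27 to 1.39 and 0.96 to 1.30 in EV cells (log2). The refits reuse libraries whose results were known when the genes were chosen. The calls kept, in EV cells above all, are a description and not support. The number of members called stayed at 3 for T3 in TRB cells and for the pools under vehicle, and at 3 or 4 for T3 in EV cells and the pools under T3. For the interaction it was 0 to 1 with each library left out, 0 only without EV vehicle replicate 3. Over all genes, T3 in EV cells called 660, against 407 with DESeq2 (271 higher, 136 lower), 368 after thinning to the shallowest library (246 higher, 122 lower) and 275 to 712 with each library left out; the counts without EV T3 replicate 2, EV vehicle replicate 1 and EV vehicle replicate 3 were 341, 396 and 275. The cause was not tested.

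Values that changed sign were all uncalled. After thinning, SLC30A1 stood at 0.01012 for T3 in TRB cells, -0.01431 for T3 in EV cells, -0.02558 for the pools under vehicle and 0.02443 for the interaction, MTF1 at 0.002435 for the pools under T3, and MT1F at -0.1078 for the interaction. With each library left out, MTF1 ranged from -0.01122 to 0.07034 for T3 in TRB cells, from -0.07798 to 0.002451 for T3 in EV cells and from -0.05312 to 0.0223 for the pools under T3. SLC30A1 ranged from -0.02899 to 0.06967 for T3 in EV cells and from -0.0878 to 0.005988 for the pools under T3. MT1G and MT1M, with 2 and 0 counts over the 12 libraries, were too low to be tested, and MT1E and MT1F had as few as 15 and 16 counts in a library.

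Same-numbered libraries did not deviate together: 0 of 18 pairs exceeded a correlation of 0.1 (-0.124 to 0.083). Pairs with different numbers ran from -0.055 to 0.141. With the replicate number as a block the MT1E difference between the pools under T3 stood at 0.3297 and was no longer called, and no other call of a member changed.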
